A study of Mus musculus with 8 samples.

Results

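The genes described here encode the machinery that takes a cell from G2 through mitosis: the Cdk1 kinase and its partners, the polo and aurora kinases, the spindle checkpoint and the anaphase-promoting complex, kinetochores, spindle motors, condensin and the proteins of cytokinesis. The list holds 52 genes named for these roles, and each was looked up by its symbol among the probe sets of the array. All 52 were found, and 47 of them were among the 14450 genes that passed the filter on low signal. Bub1, Cenpe, Kif20a, Kif23 and Cdc25c did not pass it, with highest values on any array of 3.87, 3.96, 3.45, 3.81 and 3.45 on the log2 scale for their brightest probe sets, against a limit of 3.60 that had to be exceeded on 2 arrays.

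Liver RNA from male C57BL/6 mice aged 7 to 10 weeks was measured on 8 Affymetrix arrays. The groups were Tob1 null mice 24 h after partial hepatectomy, unoperated Tob1 null mice (0 h), wild type mice 24 h after partial hepatectomy and unoperated wild type mice (0 h), with 2 arrays a group. Partial hepatectomy removes most of the liver and starts regrowth of the lobes that stay. Each array held the pooled RNA of 3 animals, with other animals on each array, so errors and p-values below measure the spread between 2 pools and not between single animals. No sham-operated group was analysed here, so surgery and loss of liver mass cannot be told apart. Tob1 is an antiproliferative protein that brings the CCR4-NOT deadenylase to messenger RNAs, and by its title the study treats it as a brake on liver regeneration.

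In a quiescent liver nearly all hepatocytes rest outside the cell cycle, and after partial hepatectomy they replicate their DNA in a partly synchronous wave and then enter mitosis. Genes for mitosis are switched on late in the cell cycle, after those for DNA replication, by the B-Myb, MuvB and FoxM1 factors acting with NF-Y, while the DREAM complex keeps them silent in resting cells. Cyclin-bound Cdk1 drives entry into mitosis, the spindle checkpoint holds back the anaphase-promoting complex (APC/C) until all chromosomes are attached, and the APC/C then marks securin and the mitotic cyclins for degradation.

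The 2 arrays of a group correlated with each other at 0.951 to 0.959. The targeted gene did not settle the genotype labels. The brighter Tob1 probe set read 10.66 and 10.58 (log2) on the null-labelled arrays at 24 h, 11.10 and 11.03 on the null-labelled arrays at 0 h, 9.87 and 10.20 in wild type at 24 h and 10.46 and 10.53 in wild type at 0 h. It was thus higher on the null-labelled arrays at both times, while a dimmer Tob1 probe set averaged 1.30 and 1.25 log2 units lower there at 24 h and 0 h, and none of these differences passed. Where these probe sets lie relative to the deletion is not known here, so every direction by genotype below rests on the labels. Hepatocyte markers were above the filter limit on every array (7 of 7).

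The promoters of these genes are shown to set genes that rose beside genes that did not. RefSeq's table for GRCm38.p6 gave 46 promoter windows for 43 of the 52 genes, each window running from 250 bases before a transcription start to 50 bases after it. The windows were searched on both strands for the cell cycle homology element, TTTGAA or TTCGAA, which is bound by MuvB, and for the NF-Y box, CCAAT. Matches to one motif that overlap each other were counted apart. Cdk1 (chr10:69352863-69353162, minus strand), Cks1b (chr3:89418242-89418541, minus strand), Aurka (chr2:172370521-172370820, minus strand) and Smc2 (chr4:52438971-52439270, plus strand) are genes that rose in the null-labelled livers. Ccnb2 (chr9:70421505-70421804, minus strand), Cdc20 (chr4:118437294-118437593, minus strand) and Plk1 (chr7:122159185-122159484, plus strand) did not pass in any comparison. Capitals mark both motifs on either strand, so TTCAAA is the homology element and ATTGG the NF-Y box read on the other strand.
Cdk1: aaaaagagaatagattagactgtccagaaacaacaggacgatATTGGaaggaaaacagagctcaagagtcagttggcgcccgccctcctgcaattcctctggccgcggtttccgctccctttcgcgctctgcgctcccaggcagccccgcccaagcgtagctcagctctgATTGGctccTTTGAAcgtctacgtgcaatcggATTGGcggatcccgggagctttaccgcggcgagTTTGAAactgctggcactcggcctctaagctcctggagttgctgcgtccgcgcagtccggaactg
Cks1b: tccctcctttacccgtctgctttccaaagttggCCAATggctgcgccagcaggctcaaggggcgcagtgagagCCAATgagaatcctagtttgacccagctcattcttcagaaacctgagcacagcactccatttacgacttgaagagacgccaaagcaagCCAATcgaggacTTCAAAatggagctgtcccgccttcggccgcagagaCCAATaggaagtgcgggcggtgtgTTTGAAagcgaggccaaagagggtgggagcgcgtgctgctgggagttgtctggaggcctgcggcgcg
Aurka: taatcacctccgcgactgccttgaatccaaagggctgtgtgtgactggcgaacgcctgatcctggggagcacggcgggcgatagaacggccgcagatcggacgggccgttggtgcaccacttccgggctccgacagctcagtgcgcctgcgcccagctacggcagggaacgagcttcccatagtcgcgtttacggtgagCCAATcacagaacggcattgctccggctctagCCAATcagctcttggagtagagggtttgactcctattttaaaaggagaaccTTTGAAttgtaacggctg
Smc2: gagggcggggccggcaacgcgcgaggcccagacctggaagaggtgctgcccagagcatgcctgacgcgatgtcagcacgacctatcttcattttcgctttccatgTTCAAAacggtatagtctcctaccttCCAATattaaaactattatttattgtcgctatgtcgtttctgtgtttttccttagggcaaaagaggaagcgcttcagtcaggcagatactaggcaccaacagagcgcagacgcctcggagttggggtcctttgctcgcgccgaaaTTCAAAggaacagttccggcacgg
Ccnb2: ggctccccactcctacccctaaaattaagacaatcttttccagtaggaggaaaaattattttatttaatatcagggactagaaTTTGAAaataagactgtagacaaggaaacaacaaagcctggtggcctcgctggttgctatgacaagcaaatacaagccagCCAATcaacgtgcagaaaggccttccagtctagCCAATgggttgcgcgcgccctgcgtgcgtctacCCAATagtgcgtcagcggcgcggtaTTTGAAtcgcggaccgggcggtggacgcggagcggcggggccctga
Cdc20: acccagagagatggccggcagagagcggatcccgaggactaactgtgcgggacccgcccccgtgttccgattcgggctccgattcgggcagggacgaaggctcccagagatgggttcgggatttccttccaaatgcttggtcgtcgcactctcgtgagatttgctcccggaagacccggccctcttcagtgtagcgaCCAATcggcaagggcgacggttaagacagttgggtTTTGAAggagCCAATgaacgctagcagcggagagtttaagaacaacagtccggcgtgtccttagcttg
Plk1: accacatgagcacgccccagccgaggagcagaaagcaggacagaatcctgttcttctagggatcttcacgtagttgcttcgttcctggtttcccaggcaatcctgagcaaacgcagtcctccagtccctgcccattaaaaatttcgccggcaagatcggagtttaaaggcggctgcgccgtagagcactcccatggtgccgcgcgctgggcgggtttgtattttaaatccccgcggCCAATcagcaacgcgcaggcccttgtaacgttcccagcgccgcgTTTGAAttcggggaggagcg

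The homology elements of Cdk1 began at positions -71 and -15 from the start of transcription, and its NF-Y boxes at -208, -80 and -48. Ccnb2 had the same pair of elements, with NF-Y boxes at -87, -54 and -21 and homology elements at -167 and 5. Over the whole list, 37 of 46 windows (80.4%) held the homology element, against 6316 of 32851 windows (19.2%) over all genes. Within 50 bases of the start the shares were 71.7% for the list and 5.31% for all windows. The NF-Y box was in 80.4% of the list's windows and in 37.4% of all windows, and more than 1 box was in 54.3% and 11.7%. The 9 risen genes with a window held the homology element in 6 cases, and the 34 other genes in 28 cases. A match describes these letters only and is no measured binding site.

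**Figure D1:**
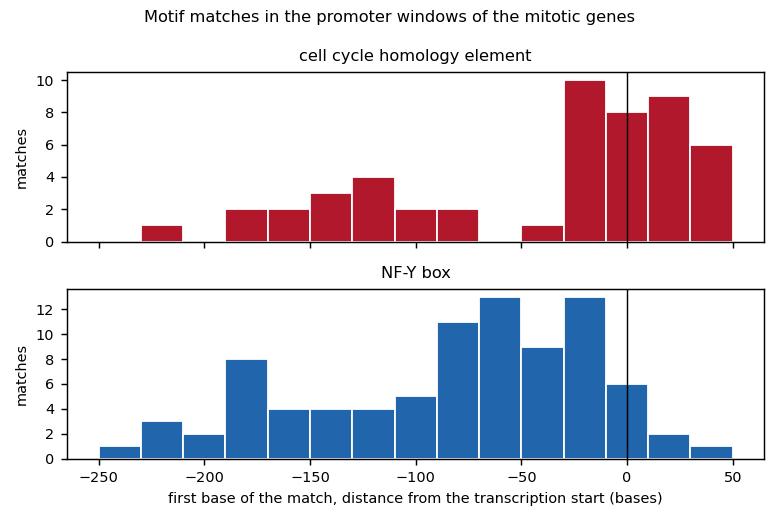
Positions of the homology element (top, 50 matches) and of the NF-Y box (bottom, 86 matches) in the 46 promoter windows of the mitotic genes. The x axis is the distance of the first base of a match from the transcription start in bases and the y axis the number of matches, with the start at the vertical line. The homology element gathers around the start (median position -17.0) and the NF-Y box ahead of it (median position -66.5).

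By 24 h after hepatectomy the null-labelled livers had raised a subset of the mitotic genes, and wild type livers had raised 1. In the null-labelled livers 10 of the 47 tested genes rose (limma, adjusted p under 0.05 after Benjamini-Hochberg correction for all 14450 genes) and 2 fell. Of all tested genes 14.7% passed in that comparison, 7.45% upward and 7.23% downward. The risen genes were Pbk, Nuf2, Smc2, Mad2l1, Cdk1, Birc5, Aurka, Ube2c, Cks1b and Bub3, with fold changes of 8.79 to 1.55, and the fallen ones were Pttg1 and Kif22. In wild type only Cks1b rose and only Pttg1 fell, where 9.21% of all genes passed, 4.13% upward and 5.08% downward. The median log2 difference over the 47 genes was 0.38 in the null-labelled livers (all genes -0.04) and -0.04 in wild type (all genes -0.03). The null-labelled median was 0.16 with the first null-labelled 24 h array dropped and 0.66 with a filter at the 60th percentile. That stricter filter kept 30 of the genes, and Pbk, Birc5, Top2a and Ube2c were kept only through the null-labelled arrays at 24 h. Aurka, Mad2l1 and Ect2 were kept only through arrays at 24 h, of both genotypes. The wild type median was 0.12 with the first wild type 24 h array dropped. Nuf2 and Espl1 were above the filter limit only on the null-labelled arrays at 24 h, so they were tested because they were high there, and the call of Nuf2 is a description and no test. Without both, a count made after the data were seen, 9 of 45 genes rose and 2 fell in the null-labelled livers (median 0.37), and 1 rose and 1 fell in wild type (median -0.06). These calls rest on few arrays. With either one of the null-labelled 0 h arrays left out, 0 of the 12 null-labelled calls passed, without the first or second null-labelled array at 24 h 1 (Mad2l1) and 2 (Mad2l1 and Smc2) passed, and without either wild type array at 0 h 5 passed. The wild type calls of Cks1b and Pttg1 were both lost without either null-labelled array at 0 h, either wild type array at 0 h or the first wild type array at 24 h. In whole liver, a greater number of dividing cells and more of a transcript in each cell cannot be told apart.

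The 24 h arrays did not overlap the 0 h arrays, upward, for 22 of 47 genes in the null-labelled livers (all genes 29.7%) and for 9 of 47 in wild type (all genes 29.4%). Downward the counts were 9 and 14 (all genes 33.3% and 32.7%). Without Nuf2 and Espl1 the upward counts were 20 and 8 of 45. The map of values by array shows that the risen genes were high on both null-labelled arrays at 24 h.

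**Figure D2:**
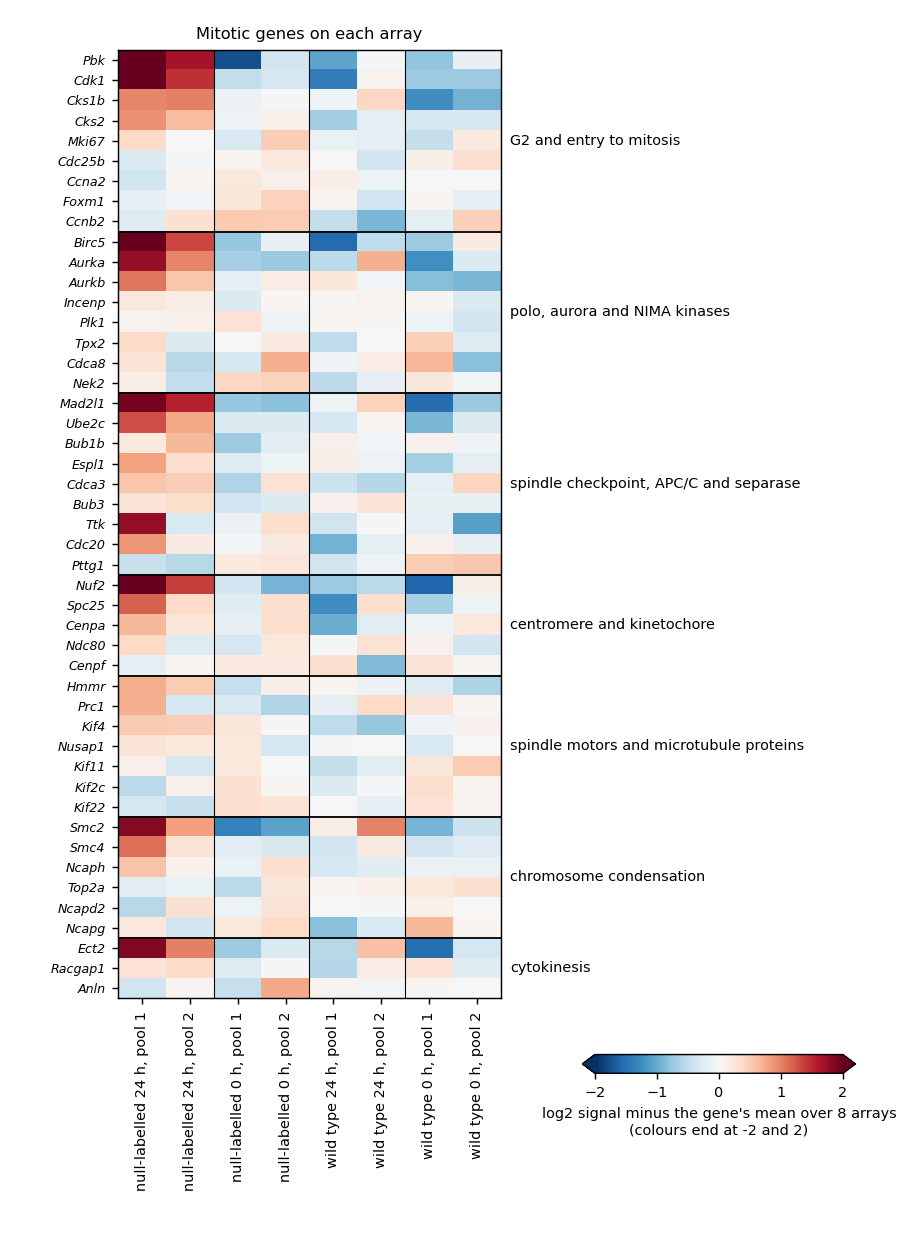
Signal of the 47 tested mitotic genes on each of the 8 arrays, as log2 signal minus the mean of the gene over the arrays (colour scale from -2 in blue to 2 in red), ordered by role. The darkest red cells include Pbk, Cdk1, Birc5, Aurka, Mad2l1, Nuf2, Smc2, Ect2 and Ttk on the first null-labelled array at 24 h.

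Among the 9 tested genes of G2 and mitotic entry, 3 rose in the null-labelled livers and none fell, with a median log2 difference of 0.11. Cdk1, the kinase that starts mitosis, read 7.90 and 7.22 (log2 signal) on the null-labelled arrays at 24 h, 5.27 and 5.43 on the null-labelled arrays at 0 h, 4.38 and 5.84 in wild type at 24 h and 5.05 and 5.04 in wild type at 0 h. Both null-labelled 24 h arrays stood above all others, and the wild type 24 h pools lay on either side of wild type at 0 h. The response, 24 h minus 0 h, was 2.21 ± 0.48 (log2 ± SE of 2 arrays against 2, from limma's spread over all groups, a 4.63-fold rise, limma adjusted p = 0.036) in the null-labelled livers and 0.07 ± 0.48 (adjusted p = 0.94) in wild type.

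Pbk, a kinase active in mitosis, had 6.94 and 6.14 on the null-labelled arrays at 24 h, 2.71 and 4.10 at 0 h, 3.42 and 4.45 in wild type at 24 h and 3.69 and 4.33 in wild type at 0 h. Only the null-labelled 24 h arrays were high, and the other groups overlapped. Its rise was the largest of the list in the null-labelled livers, 3.14 ± 0.59 (limma adjusted p = 0.027), while the wild type response was -0.07 ± 0.59 (adjusted p = 0.95).

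Cks1b, a small partner of Cdk1 that also serves the ubiquitin ligase of p27, is the gene that rose in both genotypes. It read 10.07 and 10.11 on the null-labelled arrays at 24 h, 8.98 and 9.08 at 0 h, 9.02 and 9.51 in wild type at 24 h and 7.86 and 8.14 in wild type at 0 h. In each genotype the 24 h arrays lay above those at 0 h, and the null-labelled arrays at 0 h stood within the range of wild type at 24 h for 1 array and just below it for the other. The responses were 1.06 ± 0.20 (limma adjusted p = 0.026) in the null-labelled livers and 1.26 ± 0.20 (adjusted p = 0.023) in wild type. Its paralogue Cks2 read 10.07 and 9.77, 9.05 and 9.26, 8.45 and 8.95, and 8.82 and 8.84 in the same order of groups. There the null-labelled arrays at 24 h were highest, and in wild type the times overlapped. The response of Cks2 did not pass in the null-labelled livers (0.77 ± 0.21, limma adjusted p = 0.059) or in wild type (-0.13 ± 0.21).

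The cyclins and the transcription factor of this stage did not pass in either genotype. Ccna2, the cyclin of S phase and G2, had 6.05 and 6.51 on the null-labelled arrays at 24 h, 6.66 and 6.55 at 0 h, 6.60 and 6.36 in wild type at 24 h and 6.46 and 6.46 in wild type at 0 h. The null-labelled 24 h arrays were slightly below those at 0 h, and the wild type times overlapped. A dimmer Ccna2 probe set read 5.58 and 5.12, 3.95 and 4.79, 2.90 and 3.18, and 2.77 and 3.97 in the same order. Its differences of 0.98 in the null-labelled livers and -0.33 in wild type did not pass. Ccnb2, a mitotic cyclin, read 3.50 and 4.07, 4.29 and 4.27, 3.28 and 2.85, and 3.58 and 4.24 in that order, values around the filter limit that were lower at 24 h in both genotypes without overlap. Foxm1, the activator of many genes of this list, read 4.52 and 4.64, 4.91 and 5.15, 4.75 and 4.29, and 4.73 and 4.52, with log2 differences of -0.45 ± 0.20 in the null-labelled livers and -0.11 ± 0.20 in wild type. Mki67, a marker of proliferation, read 4.50 and 4.08, 3.78 and 4.58, 3.96 and 3.94, and 3.62 and 4.28, and all 4 groups overlapped with at least one other. The responses of Mki67 were 0.11 ± 0.34 and -0.01 ± 0.34 log2 units in the null-labelled and wild type livers. Cdc25b, a phosphatase that activates Cdk1, had log2 differences of -0.29 ± 0.19 and -0.42 ± 0.19 in the same genotypes.

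Of the 8 polo, aurora and NIMA kinase genes and their partners, 2 rose in the null-labelled livers and none passed in wild type. Aurka, the kinase of centrosomes and spindle poles, read 6.28 and 5.50 on the null-labelled arrays at 24 h, 3.85 and 3.78 at 0 h, 3.99 and 5.22 in wild type at 24 h and 3.29 and 4.24 in wild type at 0 h. Again the null-labelled 24 h arrays were the highest, and the second wild type pool at 24 h stood nearer to them than the first did. The response was 2.08 ± 0.51 (limma adjusted p = 0.048) in the null-labelled livers and 0.84 ± 0.51 (adjusted p = 0.33) in wild type.

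Birc5 encodes survivin, which carries Aurora B to centromeres as part of the chromosomal passenger complex. Its values were 5.92 and 5.10 on the null-labelled arrays at 24 h, 3.00 and 3.61 at 0 h, 2.23 and 3.25 in wild type at 24 h and 3.05 and 3.92 in wild type at 0 h. The null-labelled 24 h arrays stood apart, and the mean of the other 3 groups was below the filter limit. Birc5 rose by 2.21 ± 0.50 (limma adjusted p = 0.039) in the null-labelled livers, with a wild type difference of -0.75 ± 0.50 (adjusted p = 0.37). Aurkb itself, the kinase of that complex, read 4.58 and 4.06, 3.35 and 3.65, 3.73 and 3.45, and 2.65 and 2.59 in the same order of groups. It was higher at 24 h without overlap in both genotypes, by 0.82 ± 0.22 (limma adjusted p = 0.059) in the null-labelled livers and 0.97 ± 0.22 (adjusted p = 0.0503) in wild type, each just short of passing.

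Plk1, the polo kinase needed for spindle assembly, was flat at 5.40 and 5.44 on the null-labelled arrays at 24 h, 5.61 and 5.25 at 0 h, 5.39 and 5.35 in wild type at 24 h and 5.23 and 4.96 in wild type at 0 h. Its log2 differences were -0.01 ± 0.17 and 0.27 ± 0.17 in the null-labelled and wild type livers. Incenp, Cdca8, Tpx2 and Nek2, the scaffold and borealin of the passenger complex, the activator of Aurora A and a centrosome kinase, did not pass either, with log2 differences between -0.61 and 0.29 in the null-labelled livers.

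The genes of the spindle checkpoint, the APC/C and separase had positive differences in the null-labelled livers for 8 of the 9 tested (median 0.69). Over all 14450 genes 6856 were positive. The 8 include Espl1, which was tested only through its null-labelled arrays at 24 h, so its sign is a description and no test. Of the 9 genes 3 rose and 1 fell. Mad2l1 encodes Mad2, which blocks Cdc20 until every kinetochore is attached. It read 7.38 and 7.03 on the null-labelled arrays at 24 h, 4.70 and 4.65 at 0 h, 5.36 and 5.93 in wild type at 24 h and 3.95 and 4.72 in wild type at 0 h. In both genotypes the 24 h arrays lay above those at 0 h. Mad2l1 had the smallest p of the list in the null-labelled livers, with a rise of 2.53 ± 0.31 (5.77-fold, limma adjusted p = 0.013), and the wild type difference was 1.31 ± 0.31 (adjusted p = 0.055).

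Ube2c, the enzyme that hands ubiquitin to the APC/C, had 5.89 and 5.37 on the null-labelled arrays at 24 h, 4.33 and 4.31 at 0 h, 4.26 and 4.65 in wild type at 24 h and 3.69 and 4.31 in wild type at 0 h. The null-labelled 24 h arrays were above all others, and the wild type times overlapped. Ube2c rose by 1.31 ± 0.28 (limma adjusted p = 0.035) in the null-labelled livers and differed by 0.46 ± 0.28 (adjusted p = 0.32) in wild type. Bub3, which recruits checkpoint kinases to kinetochores, moved less, at 8.50 and 8.60, 7.87 and 7.98, 8.34 and 8.50, and 8.10 and 8.10 in the same order. The times did not overlap in either genotype, and the rise of 0.63 ± 0.12 passed in the null-labelled livers (limma adjusted p = 0.029) while the difference of 0.32 ± 0.12 in wild type did not (adjusted p = 0.15).

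Pttg1, the securin that holds separase inactive, went the other way. Its values were 9.17 and 9.06 on the null-labelled arrays at 24 h, 9.80 and 9.86 at 0 h, 9.24 and 9.51 in wild type at 24 h and 10.11 and 10.14 in wild type at 0 h. All 4 arrays at 24 h were below all 4 at 0 h. Pttg1 fell by 0.72 ± 0.14 (limma adjusted p = 0.028) in the null-labelled livers and by 0.75 ± 0.14 (adjusted p = 0.031) in wild type. A dimmer Pttg1 probe set, described below with the others, gave the opposite sign in the null-labelled livers.

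Cdc20, the activator of the APC/C in mitosis, read 6.32 and 5.61 on the null-labelled arrays at 24 h, 5.41 and 5.61 at 0 h, 4.49 and 5.25 in wild type at 24 h and 5.52 and 5.29 in wild type at 0 h. Its differences, 0.46 ± 0.33 in the null-labelled livers and -0.53 ± 0.33 in wild type, had opposite signs and neither passed. Espl1, which encodes separase, read 4.26 and 3.78, 3.20 and 3.37, 3.58 and 3.35, and 2.79 and 3.28 in the same order, and only the first pair was above the filter limit. Bub1b, a checkpoint kinase-like protein, had a log2 difference of 0.88 ± 0.23 in the null-labelled livers (limma adjusted p = 0.054) and of 0.01 ± 0.23 in wild type. Ttk, the checkpoint kinase Mps1, differed by 0.62 ± 0.68 and 0.41 ± 0.68 in the null-labelled and wild type livers.

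At the kinetochore, Nuf2 was the 1 of 5 tested genes with a called difference in the null-labelled livers, and none passed in wild type. Nuf2, a subunit of the Ndc80 complex that grips microtubules, read 5.74 and 4.48 on the null-labelled arrays at 24 h, 2.71 and 2.17 at 0 h, 2.37 and 2.56 in wild type at 24 h and 1.51 and 3.21 in wild type at 0 h. It was above the filter limit on the first 2 of these arrays alone and was tested because of them. Its differences, 2.67 ± 0.64 in the null-labelled livers and 0.10 ± 0.64 in wild type, are therefore given as a description with no test. The other Ndc80 subunits tested, Ndc80 and Spc25, had differences of 0.13 ± 0.31 and 0.74 ± 0.57 in the null-labelled livers and did not pass. Cenpa, the histone of centromeres, differed by 0.37 ± 0.33 in the null-labelled livers and -0.67 ± 0.33 in wild type.

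Spindle motors and microtubule proteins showed no rise that passed in either genotype, and 1 of 7 fell. Kif22, a chromokinesin, read 8.62 and 8.51 on the null-labelled arrays at 24 h, 9.30 and 9.23 at 0 h, 8.95 and 8.80 in wild type at 24 h and 9.26 and 9.04 in wild type at 0 h. The times did not overlap in either genotype. Kif22 fell by 0.71 ± 0.14 (limma adjusted p = 0.028) in the null-labelled livers, with a difference of -0.27 ± 0.14 in wild type (adjusted p = 0.24), and this direction also depended on the probe set. Hmmr, a spindle assembly protein, read 6.29 and 6.06, 5.10 and 5.69, 5.61 and 5.44, and 5.31 and 4.94 in the same order, and was higher at 24 h without overlap in both genotypes. Kif4, the chromokinesin that brings Prc1 to the central spindle, read 4.80 and 4.76, 4.50 and 4.31, 3.76 and 3.52, and 4.20 and 4.36. It was higher at 24 h in the null-labelled livers and lower in wild type, without overlap, with differences of 0.38 ± 0.15 and -0.63 ± 0.15, neither of which passed.

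Condensin packs chromosomes for segregation, and of the 6 genes of chromosome condensation 1 rose in the null-labelled livers. Smc2, an ATPase subunit of condensin, read 7.31 and 6.30 on the null-labelled arrays at 24 h, 4.12 and 4.40 at 0 h, 5.63 and 6.47 in wild type at 24 h and 4.55 and 5.05 in wild type at 0 h. The times did not overlap in either genotype, and the second wild type pool at 24 h reached the level of the second null-labelled one. Smc2 rose by 2.54 ± 0.43 (limma adjusted p = 0.021) in the null-labelled livers and differed by 1.25 ± 0.43 (adjusted p = 0.12) in wild type. Its partner Smc4 had differences of 0.95 ± 0.31 (limma adjusted p = 0.089) and 0.24 ± 0.31. Ncapd2, Ncapg and Ncaph, the other condensin subunits, lay between -0.39 and 0.23 log2 units in the null-labelled livers. Top2a, which untangles chromosomes, read 4.11 and 4.20, 3.78 and 4.55, 4.38 and 4.44, and 4.53 and 4.64 on its brightest probe set.

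None of the 3 genes of cytokinesis passed in either genotype alone. Ect2, which activates RhoA at the cleavage furrow, had 6.60 and 5.77 on the null-labelled arrays at 24 h, 4.02 and 4.46 at 0 h, 4.19 and 5.34 in wild type at 24 h and 3.24 and 4.39 in wild type at 0 h. The null-labelled 24 h arrays were the highest, and the wild type times overlapped. Its difference was 1.94 ± 0.55 (limma adjusted p = 0.067) in the null-labelled livers and 0.95 ± 0.55 in wild type. Racgap1 and Anln, a partner of Ect2 and a scaffold of the contractile ring, had differences of 0.48 ± 0.29 and -0.33 ± 0.39 in the null-labelled livers.

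**Figure D3:**
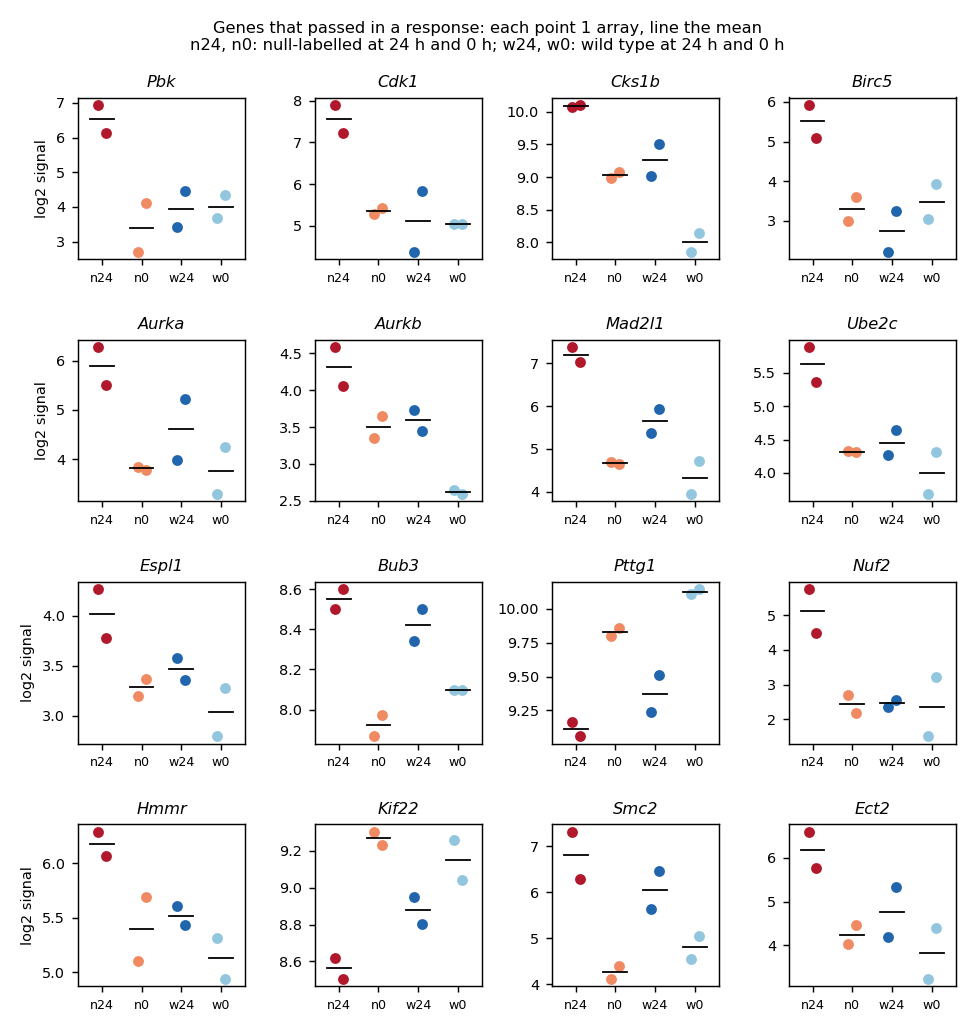
Log2 signal on each array for the 16 mitotic genes that passed in the null-labelled response, the wild type response or their mean, with 1 point an array, a line at the group mean and a y axis of its own for each gene. Pttg1 and Kif22 are lower at 24 h, and in the other 14 panels the null-labelled 24 h arrays have the highest mean.

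Averaged over both genotypes, with 4 arrays at 24 h against 4 at 0 h, 11 of the 47 genes rose and 2 fell, where 28.8% of all genes passed, 13.8% upward and 15% downward. Cks1b, Mad2l1, Smc2, Bub3, Ube2c, Aurka and Pbk were among the 11. The other risen genes were Aurkb (0.89 ± 0.16, limma adjusted p = 0.012), Ect2 (1.44 ± 0.39, adjusted p = 0.040), Espl1 (0.58 ± 0.17) and Hmmr (0.59 ± 0.17, adjusted p = 0.049), none of which passed in a single genotype. The value of Espl1 is a description, since it was tested only through its null-labelled arrays at 24 h. Without Espl1 and Nuf2, 10 of 45 genes rose and 2 fell. Cdk1, Birc5 and Nuf2, which rose in the null-labelled livers, did not pass in this mean, with limma adjusted p of 0.052 and 0.17 for Cdk1 and Birc5.

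Between the genotypes at 24 h no mitotic gene passed, and 1 of all 14450 genes did (0.00692%). The smallest limma adjusted p of the list was 0.15, that of Kif4. An unadjusted p under 0.05 was reached by 18 of the 47 genes, all of them higher in the null-labelled livers. The 18 include Nuf2, which was tested only through its null-labelled arrays at 24 h. Over all 14450 genes 925 were higher and 770 lower at that threshold. The null-labelled arrays were higher for 38 genes and lower for 9 (all genes 7355 and 7095), with a median log2 difference of 0.54 against 0.01 over all genes. The median was 0.31 with the first null-labelled 24 h array dropped, 0.26 with 16 added and 0.37 with the deposited values. They stood above both wild type arrays without overlap for 28 of 47 genes (all genes 20.9%) and below them for 3 (all genes 19.7%). Without Nuf2 and Espl1 the null-labelled arrays were higher for 36 of 45 genes, above wild type without overlap for 26, and the median was 0.48. The largest differences, null-labelled minus wild type at 24 h, were those of Birc5 (2.77 ± 0.50), Nuf2 (2.65 ± 0.64), Pbk (2.61 ± 0.59) and Cdk1 (2.45 ± 0.48). The limma adjusted p of Birc5, Pbk and Cdk1 lay between 0.192 and 0.245, so none of them passed. The value of Nuf2 is a description and no test.

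In the unoperated livers no mitotic gene passed between the genotypes (nor did any of the 14450 genes, 0%), and the smallest limma adjusted p was 0.38, for Cks1b, whose difference was 1.03 ± 0.20. Aurkb was the other gene with an unadjusted p under 0.05, at 0.88 ± 0.22 (limma adjusted p = 0.40). Over all genes 703 were higher and 687 lower at that threshold. The null-labelled arrays were higher for 32 of 47 genes and lower for 15 (all genes 7418 and 7031), with a median of 0.09 against 0.01 over all genes. Dropping 1 array of the 0 h groups gave a median of 0.0019 (second null-labelled array), 0.15 (first null-labelled array) or 0.05 (first wild type array). They lay above wild type without overlap for 11 genes (all genes 24.2%) and below it for 6 (all genes 23.9%).

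The difference between the responses, null-labelled minus wild type, passed for no mitotic gene and for none of all 14450 genes (0%), so that a larger response in the null-labelled livers is not shown for any single gene. It was positive for 35 of 47 genes (all genes 7227 of 14450), with a median of 0.35 against 0.00 over all genes. The median was 0.61 with the second null-labelled 24 h array dropped and 0.71 with the 60th percentile filter. That filter kept Pbk, Birc5, Top2a and Ube2c only through the null-labelled arrays at 24 h. Without Nuf2 and Espl1, 33 of 45 genes were positive (median 0.35). An unadjusted p under 0.05 was reached by 9 genes, all positive, against 660 positive and 584 negative over all genes. The 9 include Nuf2, which was tested only through its null-labelled arrays at 24 h, so its value is a description and no test. Pbk (3.21 ± 0.83), Birc5 (2.96 ± 0.71), Nuf2 (2.57 ± 0.91) and Cdk1 (2.14 ± 0.68) had the largest values, with limma adjusted p of 0.53 to 0.56 for Pbk, Birc5 and Cdk1. These comparisons share arrays: the responses and the genotype differences at 24 h use the same null-labelled and wild type arrays, so their values are not separate evidence.

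**Figure D4:**
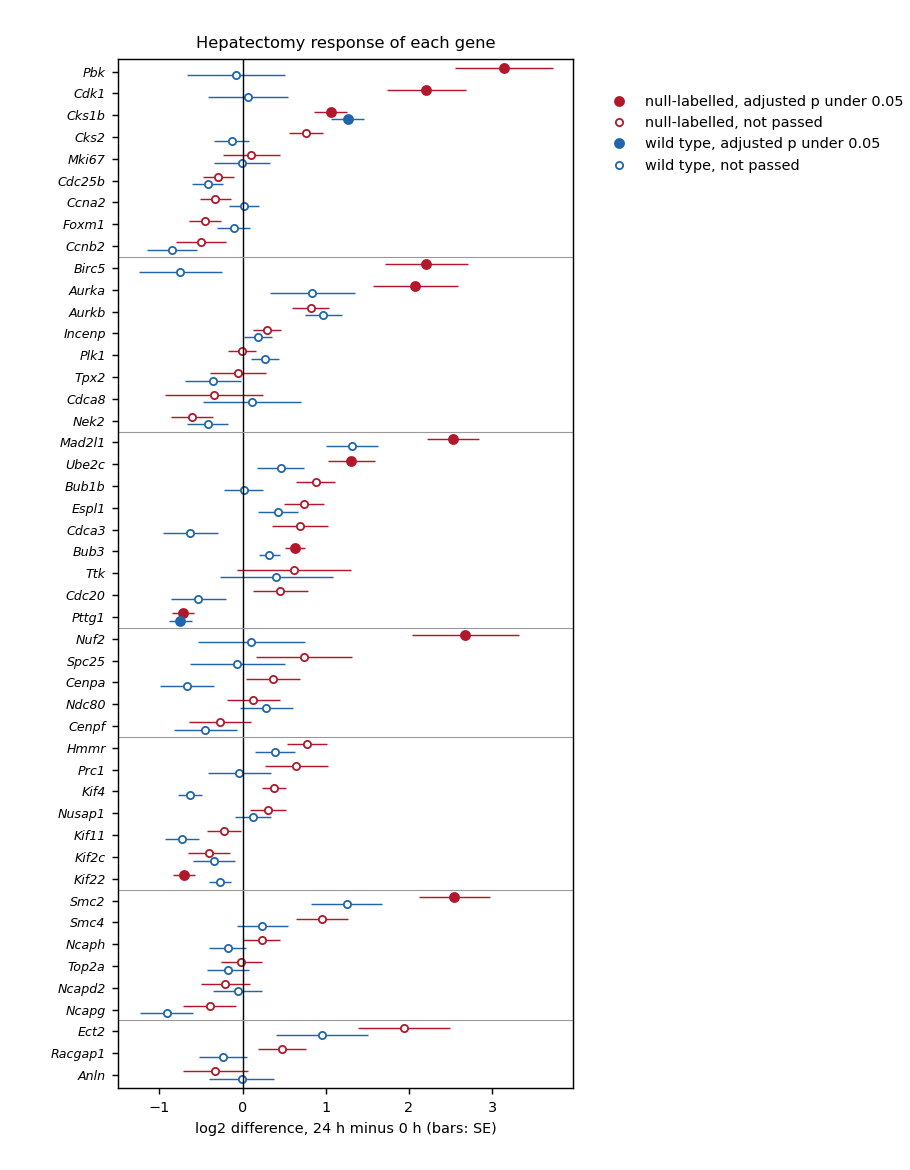
Log2 difference between 24 h and 0 h for the 47 tested genes in the null-labelled (red) and wild type (blue) livers, ordered by role with lines between the roles, bars showing the SE. Filled points passed at a limma adjusted p under 0.05. The 12 filled red points include Pttg1 and Kif22 to the left of 0, and the 2 filled blue points are Cks1b and Pttg1.

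The 2 pools of a group differed in the level of the whole list. In the null-labelled livers at 24 h the first pool was higher for 33 of 47 genes (70.2%, against 47.8% of all genes), and in wild type at 24 h the second pool was higher for 31 of 47 (66.0%, against 51.5% of all genes). In wild type at 24 h, 6 mitotic genes differed at least 2-fold in favour of the second pool, and 1 in favour of the first. In the null-labelled livers at 0 h the second pool was higher for 32 of 47 (68.1%, against 51.3% of all genes). Pools of wild type at 0 h were even, with 23 and 24 genes. The DNA replication genes, which act earlier in the cycle, went with the same pools at 24 h: 34 of 39 were higher in the first null-labelled pool at 24 h and 34 of 39 in the second wild type pool. At 0 h 21 of 39 were higher in the second null-labelled pool and 30 of 39 in the second wild type pool. The part of these pool differences in the results above was not tested.

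For 27 of the 47 genes more than 1 probe set passed the filter, and the probe sets of a gene often disagreed. In the null-labelled response 17 of the 27 had probe sets of both signs, and for 16 the probe sets differed by at least 2-fold. The probe set with the highest mean stood for the gene throughout, and the level of one probe set says nothing about that of another. Top2a is the clearest case: its second probe set read 6.62 and 5.26 on the null-labelled arrays at 24 h, 2.21 and 3.64 at 0 h, 2.18 and 4.24 in wild type at 24 h and 3.62 and 4.14 in wild type at 0 h. That is a null-labelled difference of 3.01 and a wild type difference of -0.67, where the probe set that stood for the gene gave -0.01 and -0.18. Over all probe sets its adjusted p was 0.073 (limma).

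Dimmer probe sets of other genes that had not passed did pass when all 30525 probe sets were tested. Ncapg had one with a null-labelled difference of 2.60 beside the -0.39 given above. This Ncapg probe set was above the filter limit only on the null-labelled arrays at 24 h, so its pass is a description and no test. Cdca8 had one with a null-labelled rise of 2.60 (limma adjusted p = 0.048) beside -0.34. Kif22 had a probe set that rose by 1.60 in the null-labelled livers (limma adjusted p = 0.032) and by 1.64 in wild type (adjusted p = 0.042), opposite in sign to the fall of its brightest one. For Pttg1 a dim probe set rose by 1.47 in the null-labelled livers (limma adjusted p = 0.047) and differed by -0.23 in wild type. Cdc20 had one that fell by 0.94 (limma adjusted p = 0.039), and Cks2 had one that rose by 0.88 (adjusted p = 0.041), both in the null-labelled livers. In that fit 14 probe sets of 13 mitotic genes rose and 3 probe sets of 3 genes fell in the null-labelled livers, of 87 tested, against 6.06% and 4.72% of all probe sets. The 14 include the Ncapg and Cdca8 probe sets that are a description only. The calls of Aurka and Nuf2 in the null-labelled livers were lost there (limma adjusted p = 0.056 and 0.052). In wild type 2 rose and 1 fell, against 2.64% and 2.7%.

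**Figure D5:**
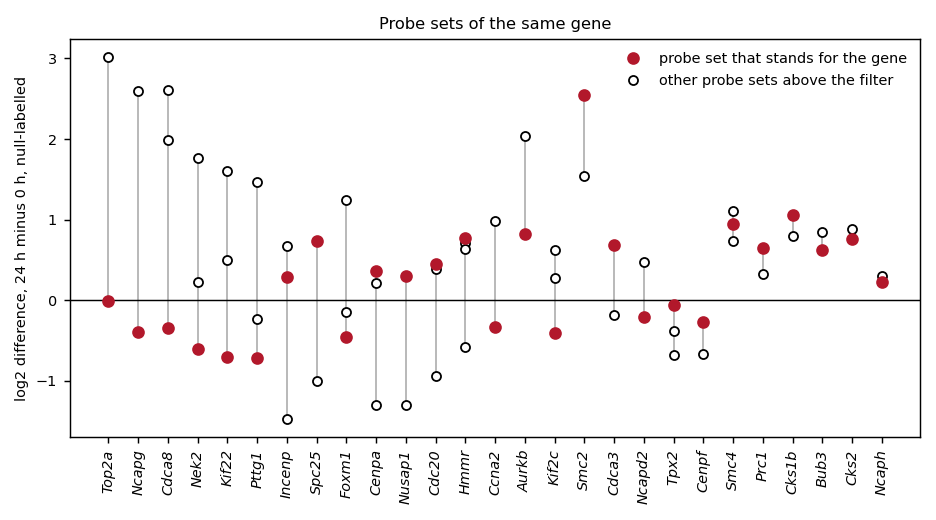
Log2 difference between 24 h and 0 h in the null-labelled livers for every probe set above the filter of the 27 mitotic genes that have several, sorted by the spread within a gene. Filled points stand for the gene in the other results, and open points are its other probe sets. For Top2a the filled point is at -0.01 and the open one at 3.01.

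Other genes of the same machinery were listed apart, also with earlier results of these data known. For these and the lists below, 7.45% of all genes rose and 7.23% fell in the null-labelled livers. In wild type the shares over all genes were 4.13% and 5.08%. Of 48 further mitotic genes tested 10 rose and 2 fell in the null-labelled livers (median 0.48), and 3 rose and 2 fell in wild type (median 0.04). The 10 include Cenph and Mastl, which were above the filter limit only on the null-labelled arrays at 24 h. They also include Kif18a, Sgo1 and Zwilch, which were above it only on arrays at 24 h, of both genotypes. All these genes were tested because they were high there, so their place in the count is a description and no test. Cenpt, a centromere protein, rose by 1.95 ± 0.14 (limma adjusted p = 0.0069) in the null-labelled livers and by 0.71 ± 0.14 (adjusted p = 0.038) in wild type. Cenph, its neighbour in the inner kinetochore, differed by 3.07 ± 0.35 in the null-labelled livers and by -0.18 ± 0.35 in wild type. Because Cenph was tested only through its null-labelled arrays at 24 h, these values are a description and no test. Tubb4b, a tubulin, rose in both genotypes, and Kif15, a spindle kinesin, fell in both, by 1.38 ± 0.16 and 1.15 ± 0.16 in the null-labelled and wild type livers (limma adjusted p = 0.011 and 0.021).

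Among 14 genes that control Cdk1, 4 rose in the null-labelled livers and 1 in wild type. Chek1, a checkpoint kinase that restrains Cdk1, differed by 3.57 ± 0.60 in the null-labelled livers and by 2.56 ± 0.60 in wild type. It was above the filter limit only on arrays at 24 h, of both genotypes, and was tested because it was high there. These values, and its place among the 4, are therefore a description and no test. Wee1, the kinase that inhibits Cdk1, rose in wild type by 2.22 ± 0.46 (limma adjusted p = 0.040), with a null-labelled difference of 1.31 ± 0.46 (adjusted p = 0.11). Mastl and Arpp19 shut off the phosphatase that opposes Cdk1. Arpp19 rose by 0.59 ± 0.14 in the null-labelled livers (limma adjusted p = 0.043), and Mastl differed by 1.95 ± 0.45 there. Mastl was tested only through its null-labelled arrays at 24 h, so its place among the 4 is a description and no test. Mastl is counted in the preceding list too.

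Of 13 genes of the APC/C core 2 rose in the null-labelled livers (median 0.08, range -0.49 to 0.79), and 1 rose and 1 fell in wild type. Anapc4, a scaffold subunit, rose by 0.79 ± 0.15 in each genotype (limma adjusted p = 0.028 in the null-labelled livers and 0.034 in wild type). Cdc16, another scaffold subunit, rose in the null-labelled livers (0.71 ± 0.15, limma adjusted p = 0.036), with a wild type difference of 0.63 ± 0.15 (adjusted p = 0.058), and Anapc13 fell in wild type by 0.55 ± 0.11 (adjusted p = 0.038). Of 10 cohesin genes, 1 was called upward in the null-labelled livers, Sgo1, a protector of centromeric cohesin (2.54 ± 0.48), and 2 fell, Stag2 and Nipbl. Sgo1 is also counted among the further mitotic genes. It was above the filter limit only on arrays at 24 h, of both genotypes, so its call is a description and no test. Of the 14 genes of MuvB, B-Myb, NF-Y and their partners, 3 rose (Tfdp1, Lin54 and Rbl1) and 1 fell (Rbl2) in the null-labelled livers, with a median of -0.23. Tfdp1, a partner of the E2F factors, rose there by 1.14 ± 0.12 (limma adjusted p = 0.011) and in wild type by 0.71 ± 0.12 (adjusted p = 0.026). Rbl2, which encodes the p130 protein of the DREAM complex in resting cells, fell by 0.92 ± 0.16 in each genotype (limma adjusted p = 0.023 in the null-labelled livers and 0.029 in wild type). Of 39 DNA replication genes 19 rose in the null-labelled livers (median 1.62), and 2 rose and 1 fell in wild type (median 0.62).

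Markers of other cells were compared beside these results, and their part in them was not tested. No marker tested was at 0 on any array. Kupffer cell and leucocyte markers included 1 of 9 that rose in the null-labelled livers, Cd68 (2.02 ± 0.14, limma adjusted p = 0.0069), and 1 that fell, Csf1r, with summed levels of 10.31 and 10.16, 10.47 and 10.45, 9.74 and 10.11, and 10.63 and 10.44 (log2 of the sum) on the null-labelled arrays at 24 h and 0 h and the wild type arrays at 24 h and 0 h. Of these 9 markers 6 were lower at 24 h in the null-labelled livers (median -0.30) and 8 in wild type (median -0.65), and at 24 h 8 were higher in the null-labelled than in the wild type livers (median 0.45, none passed by limma and 3 had an unadjusted p under 0.05). The 3 neutrophil markers tested had a median difference of 1.95 in the null-labelled livers and 2.55 in wild type, where none passed in either genotype alone. Their summed level was 7.21 and 8.05, 5.77 and 5.83, 9.27 and 6.94, and 5.39 and 5.78 in the same order, high at 24 h in both genotypes. Endothelial markers had 1 of 7 that rose in the null-labelled livers, Pecam1, and stellate cell markers had 2 of 7 that fell, Des and Col3a1. Of 3 erythroid markers 1 fell in both genotypes, Alas2, and none of 4 duct markers passed. Of 7 hepatocyte markers 1 fell in the null-labelled livers, Hnf4a, by 0.52 ± 0.13 (limma adjusted p = 0.045).

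The ratio of 3' to 5' signal, a sign of RNA quality, moved with the groups as well. For actin it was 1.27 ± 0.07 (log2, SD, n = 2) on the null-labelled arrays at 24 h, 1.56 ± 0.03 at 0 h, 0.97 ± 0.09 in wild type at 24 h and 1.22 ± 0.25 in wild type at 0 h. For Gapdh the ratios were 0.16 ± 0.12, 0.52 ± 0.02, 0.07 ± 0.10 and 0.23 ± 0.07 in the same order. The null-labelled arrays at 0 h, against which the null-labelled response is measured, thus had the highest ratios of both controls, and what this contributes to the response was not tested.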

How the data were processed

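Gene expression was measured with Affymetrix arrays carrying 45101 probe sets, of which 64 are controls. The deposited values are on a log2 scale, read as such from the values, and the signal algorithm and any scaling by the authors before deposit are not given in the sources used here. Quantile normalisation was applied to them across the arrays. Kept were probe sets above the 40th percentile of its array on at least 2 of 8 arrays, and the probe set with 1 gene symbol in the platform annotation and the highest mean stood for the gene (34958 probe sets had 1 symbol, 932 several, 9160 none). That left 14450 genes.

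A mean for each of 4 groups was fitted to the 8 arrays with limma 3.58.1 in R 4.3.3 (residual degrees of freedom 4, prior 2.01). Of 6 comparisons, 3 set 24 h against 0 h (each genotype and their mean), 2 set null-labelled against wild type livers (at 24 h and at 0 h) and 1 took the difference of the responses. The two-sided threshold was 0.05 for p adjusted by Benjamini-Hochberg across the 14450 genes. Every gene of the list that passed, and a fixed set of well-known ones, was described by array; from each other list at most 4 genes with the smallest p were named. The members and lists were chosen with earlier results of these data known. Precision is limited by having 2 arrays a group.

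Same-numbered pools were of different animals, and their deviations did not move together (correlations of -0.20 to 0.05). Promoter windows came from RefSeq (GRCm38.p6) and were searched with Python 3.11.15. The alternatives were the deposited values, median centring, no filter, a filter at the 60th percentile, the mean of a gene's probe sets, a trended and robust prior, 16 added on the linear scale, a replicate block and leaving out each array. A crossed replicate block was added after the data were seen. The fit was tested on simulated data.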

Additional observations from a re-analysis of the deposited data

Results flagged for a closer look

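Kif4 was flagged because every null-labelled array at 24 h was above those at 0 h while every wild type array at 24 h was below those at 0 h. Over all genes 29.7% were higher without overlap in the null-labelled livers and 32.7% lower without overlap in wild type. The share of all genes with both was not counted, so the pattern is not shown to be unusual. The difference of its responses, null-labelled minus wild type, was 1.01 ± 0.21 (log2 ± SE), and limma gave it an adjusted p of 0.52.

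Cdca3, a protein that promotes entry into mitosis, showed the same pattern. It read 5.32 and 5.26 on the null-labelled arrays at 24 h, 4.15 and 5.05 on the null-labelled arrays at 0 h, 4.33 and 4.19 in wild type at 24 h and 4.58 and 5.19 in wild type at 0 h. The difference of its responses was 1.31 ± 0.47 (limma adjusted p = 0.56). Neither difference passed, and with 14450 genes tested none did.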

How the results depend on the processing

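The number of mitotic genes that passed in the null-labelled response was 12, and 4 with no filter, 5 with the replicate block (the same numbers do not pair the pools), 8 with the mean of a gene's probe sets, 11 with the deposited values, 14 with median centring (all of them upward) and 15 with the 60th percentile filter, the trended prior or 16 added. Leaving out each array gave 0 to 12. In wild type the count was 2, and 1 with median centring, no filter, the mean of probe sets or the replicate block. It was 3 with the 60th percentile filter, the trended prior or 16 added, and 0 to 3 with each array left out. In the mean of both genotypes the count was 13, and 8 with no filter, 10 with the replicate block and 5 to 12 with each array left out. The crossed block, chosen after seeing the data, gave 14 in the null-labelled livers, 4 in wild type and 16 in the mean. Between the genotypes at 24 h the trended prior passed 1 gene, Cks2, and every other setting 0.

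Median centring moved the median of all genes to 0.12 in the null-labelled response, against -0.04. Taking the mean of a gene's probe sets reversed the null-labelled log2 difference of Ccna2 (0.33), Cdc20 (-0.032), Kif22 (0.47), Top2a (1.50), Foxm1 (0.22) and Pttg1 (0.17), the wild type one of Ccna2 (-0.16) and Foxm1 (0.16) and the mean one of Kif22 (0.36). The 60th percentile filter, which drops the brighter Top2a probe set, gave Top2a 3.01. Top2a, Pbk, Birc5 and Ube2c passed that filter only through the null-labelled arrays at 24 h. Aurka, Mad2l1 and Ect2 passed it only through arrays at 24 h, of both genotypes. The values of all these genes under that filter, and their place in its counts, are therefore a description and no test. Plk1 turned to 0.0092 with the deposited values and 0.17 with median centring, and Mki67 to -0.078 with the deposited values. With each array left out, null-labelled differences ran from -0.19 to 0.18 for Plk1, -0.40 to 0.37 for Top2a and -0.30 to 0.51 for Mki67. In wild type they ran from -0.67 to 0.80 for Cdk1, -0.10 to 0.13 for Ccna2, -0.34 to 0.12 for Foxm1 and -0.34 to 0.33 for Mki67. The cause of these shifts was not tested, beyond the choice of probe set named above. A fit without an array leaves 1 array in its group, which is assumed to vary like the other groups.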
